A study of Mus musculus with 8 samples.

Results

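Cycling chondrocytes were the cells of the postnatal day 10 (P10) mouse intervertebral disc that carried transcripts of cell division and of cartilage at once. They were chosen by unique molecular identifiers (UMIs, each standing for 1 captured transcript): at least 5 UMIs of Top2a, Mki67 and Birc5 together, at least 5 of Acan, at least 10 of Matn1, Matn3 and Cnmd together, under 5 of Krt8 and under 3 of Pecam1 and Cdh5 together. Of 6999 P10 cells that passed the quality filters, 306 met the rule (4.37%, exact 95% binomial interval 3.9 to 4.88), of 13480 such cells in the whole series. They made up 6.14% (5.49 to 6.84) of the 4987 P10 cells that met the chondrocyte side of the rule. In the same chondrocyte group, 347 cells had 1 to 4 UMIs of the 3 cycle genes, and 4334 cells had 0. The 4334 cells are called non-cycling chondrocytes below, although a dividing cell without a UMI of the 3 cycle genes falls among them. The rule's 10 genes are a choice, not a result.

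Whole discs from lumbar levels and from the proximal tail of Tagln-CreERt2;R26tdTomato mice were dissociated and profiled by droplet-based (10x) single-cell RNA sequencing at P10 or at 8 weeks. All mice carried the tamoxifen-inducible Cre under Tagln control and the tdTomato reporter in the Rosa26 locus, and all received tamoxifen at postnatal day 5. The cells were not sorted, the discs had been trimmed of muscle and vessels and washed of blood, and the number and sex of the animals are not given in the sources used here. The study asked what Tagln-expressing cells contribute to the nucleus pulposus, the core of the disc. Each age had 4 deposited samples but 1 matrix with a single barcode suffix, so each age was 1 library, and age and library cannot be told apart. With 1 library an age there is no replicate check: levels are UMIs of the summed cells per 1000000 of their UMIs (CPM), all intervals are exact 95% intervals that cover counting error only, and no p-value was computed.

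Chondrocytes that divide form the columns of growth plates and populate the cartilage end plates of the disc. In a growth plate, slowly dividing resting chondrocytes feed a zone of fast division, and those cells then leave the cycle, turn prehypertrophic (Ihh) and finally hypertrophic (Col10a1). A dividing cell first switches on S-phase genes for copying DNA, mostly through E2F factors. Later come G2/M genes for building the spindle and separating chromosomes. The MuvB complex with B-MYB and FOXM1 activates G2/M genes through CHR elements of their promoters. Those promoters often hold CCAAT boxes as well, which are a separate element.

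The P10 library held 143203550 UMIs in 7690 barcodes and the 8-week library 115097999 UMIs in 7597 barcodes; the ages shared 12 barcode sequences, none of them from a P10 cycling chondrocyte. Cycling chondrocytes were deep cells, with 6869 to 89600 UMIs and a median of 33415.5, against a median of 22560 in chondrocytes with 1 to 4 cycle UMIs and 19588 in non-cycling chondrocytes. The median number of detected genes was 4840.5 in cycling, 3665 in the 1-to-4 group and 3346 in non-cycling chondrocytes. After every cell was thinned to 5000 UMIs, the medians were 1660, 1553 and 1472 genes in the same order of groups. Mitochondrial UMIs took a median of 3.64% in cycling and 3.46% in non-cycling chondrocytes. Because a deeper cell reaches 5 UMIs more easily, a ratio is also given for cells of 20000 to 40000 UMIs, called the depth band, where that moved it by more than 1.5 times or turned its direction.

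The rule genes themselves showed a broad range among the members. Top2a, which untangles replicated DNA, had 0 to 55 UMIs a cell with a median of 12. Mki67, the Ki-67 protein that coats mitotic chromosomes, had 0 to 45 with a median of 6, and Birc5, the survivin subunit of the chromosomal passenger complex, 0 to 42 with a median of 10. Their sum ran from 5 to 117 UMIs with a median of 30, so most members stood far above the threshold. At the edge, 4 cells had exactly 5 UMIs and 12 cells had 4; summed G2/M list transcripts were 1207 CPM in the cells at 5 and 1143 CPM in the cells at 4, against 46.5 CPM in cells with 0, so cells just outside the threshold also carried mitotic transcripts. Acan, the large cartilage proteoglycan, had 20 to 524 UMIs a member with a median of 135, and Matn3, a matrix adaptor protein of growing cartilage, 0 to 115 with a median of 43. Col2a1, the main collagen of cartilage and not part of the rule, had 360 to 7167 UMIs in a member (median 1533.5). Each of the 306 members thus held cartilage transcripts outside the rule. This does not show that each was 1 cell, since 28 members held at least 10 UMIs of another type's defining markers.

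Promoter windows of 5 division genes are shown, since the lists they stand for, G2/M and S phase, had high medians in the members. Ube2c and Pclaf were among the 12 highest-ranked genes, and the other genes were not. The rank was by the interval bound closer to no difference, not by the ratio itself. Each window holds 300 bases, 250 before and 50 after the RefSeq start (GRCm38.p6), with matches in capitals. The CHR motif was searched as TTTGAA or as TTTAAA, the CCAAT box by its own letters, and the E2F motif as TTCCCGC or as TTGGCGC. Both strands were read, and overlapping matches were counted. Ube2c (chr2:164769679-164769978, plus strand) encodes the ubiquitin-conjugating enzyme of the anaphase-promoting complex, Cdc20 (chr4:118437294-118437593, minus strand) its activator, and Ccnb2 (chr9:70421505-70421804, minus strand) the mitotic cyclin B2. Pclaf (chr9:65890073-65890372, plus strand) encodes a PCNA-binding factor of S phase, and Rrm2 (chr12:24708004-24708303, plus strand) the small subunit of ribonucleotide reductase, which makes deoxynucleotides.
Ube2c: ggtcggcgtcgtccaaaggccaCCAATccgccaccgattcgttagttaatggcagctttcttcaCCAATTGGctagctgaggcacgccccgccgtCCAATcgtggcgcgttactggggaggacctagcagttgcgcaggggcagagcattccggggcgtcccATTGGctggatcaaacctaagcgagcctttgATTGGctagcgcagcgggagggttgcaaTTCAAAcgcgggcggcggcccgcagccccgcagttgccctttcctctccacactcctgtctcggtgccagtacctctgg
Cdc20: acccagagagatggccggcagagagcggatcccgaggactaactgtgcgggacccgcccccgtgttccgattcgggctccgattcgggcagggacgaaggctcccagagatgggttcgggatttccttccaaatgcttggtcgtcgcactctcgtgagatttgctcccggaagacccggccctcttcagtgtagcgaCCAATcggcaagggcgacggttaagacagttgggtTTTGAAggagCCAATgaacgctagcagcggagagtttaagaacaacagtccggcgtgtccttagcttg
Ccnb2: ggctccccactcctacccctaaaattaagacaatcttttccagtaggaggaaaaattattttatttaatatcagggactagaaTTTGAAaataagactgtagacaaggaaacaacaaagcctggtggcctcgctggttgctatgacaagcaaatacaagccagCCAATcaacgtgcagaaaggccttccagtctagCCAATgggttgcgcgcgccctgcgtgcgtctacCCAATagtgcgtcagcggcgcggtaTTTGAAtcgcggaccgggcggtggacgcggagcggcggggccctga
Pclaf: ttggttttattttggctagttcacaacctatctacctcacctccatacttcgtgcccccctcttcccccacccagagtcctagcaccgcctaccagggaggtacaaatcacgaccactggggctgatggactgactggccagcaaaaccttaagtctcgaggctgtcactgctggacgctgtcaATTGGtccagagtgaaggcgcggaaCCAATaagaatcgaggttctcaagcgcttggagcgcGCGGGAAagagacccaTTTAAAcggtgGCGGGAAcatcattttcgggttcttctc
Rrm2: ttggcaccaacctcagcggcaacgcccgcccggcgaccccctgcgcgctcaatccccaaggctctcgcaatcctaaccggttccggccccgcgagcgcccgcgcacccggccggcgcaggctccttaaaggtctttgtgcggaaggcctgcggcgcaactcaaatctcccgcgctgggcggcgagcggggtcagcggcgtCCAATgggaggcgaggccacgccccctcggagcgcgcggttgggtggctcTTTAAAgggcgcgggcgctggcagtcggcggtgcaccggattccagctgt
The Ube2c window held 1 CHR match and 6 CCAAT matches, Cdc20 1 and 2, and Ccnb2 2 and 3; none of these windows held an E2F match. Pclaf had 2 E2F matches beside 1 CHR and 2 CCAAT matches, and Rrm2 had 1 CHR and 1 CCAAT match. Across the G2/M list, 30 of 35 genes had a window, and 26 of them (86.7%) held a CHR match, 25 (83.3%) a CCAAT match and 22 (73.3%) both. Across all 27025 genes with a window, 27.8% held CHR, 37.9% CCAAT and 10.9% both. In the S-phase list, 13 of 23 windows (56.5%) held an E2F match, against 3 of 30 (10.0%) in the G2/M list and 6.93% of all genes. A match says only that the letters are there.

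Among the 25 gene lists, those of cell division, for which the rule selected, had the highest median ratios of cycling over non-cycling chondrocytes, and the list of resting and periarticular chondrocytes had the lowest. Of 11888 genes with at least 100 UMIs in both groups together, 1102 (9.27%) were at least 2-fold higher and 669 (5.63%) at least 2-fold lower in cycling chondrocytes. The median gene stood at a log2 ratio of 0.12, and TMM scaling put the shift at 0.21; after centring on the median gene the counts were 919 higher and 814 lower, and with TMM 825 higher and 963 lower. Ratios nearer to 0 than these shifts have no stable sign. This contrast is the one the rule was built on, and a gene could reach 100 UMIs through a single group, so the counts below describe these cells and nothing is read from their size.

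**Figure D1:**
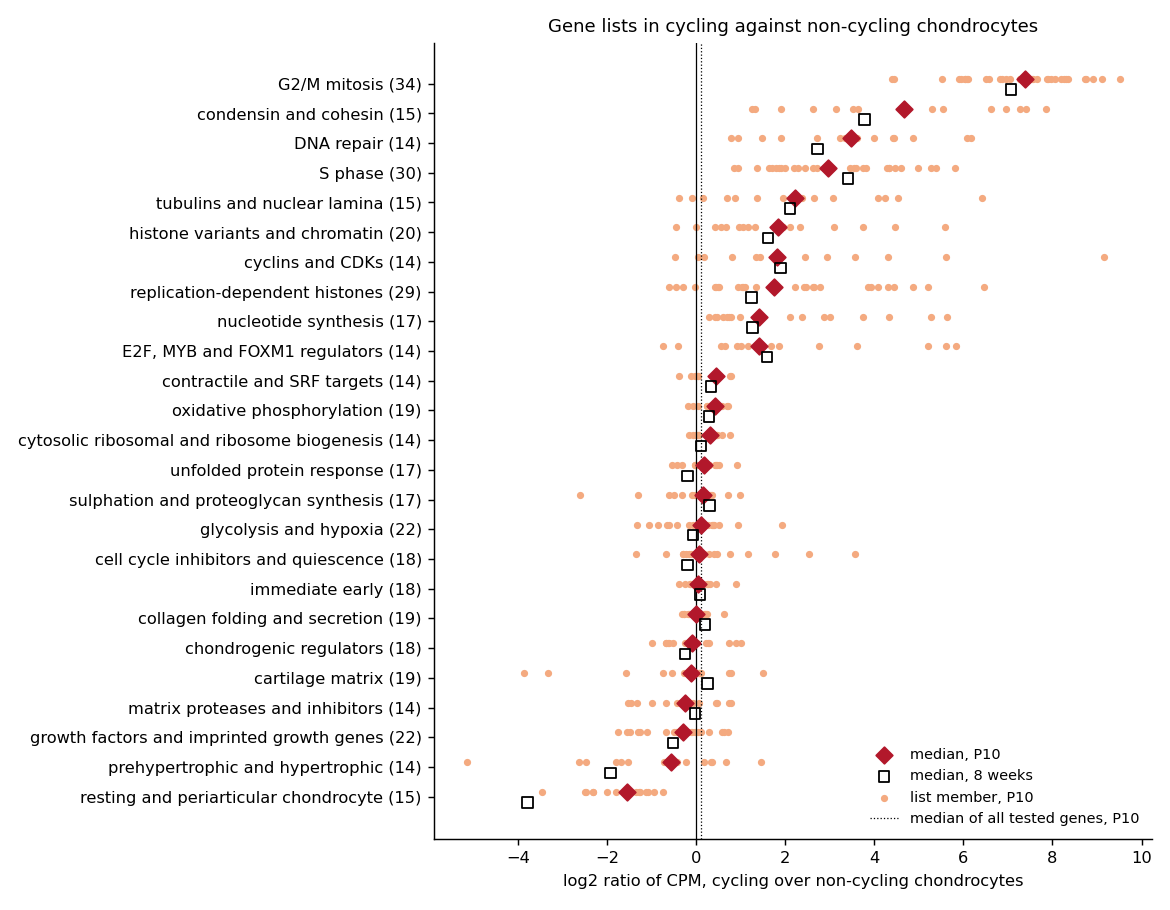
Log2 ratio of CPM in cycling over non-cycling chondrocytes for the 25 gene lists. Points are genes at P10, diamonds the P10 list medians and squares the 8-week list medians; the dotted line marks the median of all P10 genes at 0.12. The G2/M list lies farthest to the right with a P10 median of 7.38, and the resting list farthest to the left with -1.55.

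Genes of DNA replication were higher in cycling chondrocytes, most of them severalfold. All 30 S-phase genes reached the UMI minimum; 28 were at least 2-fold higher and 0 lower, with a median log2 ratio of 2.96 (2.98 in the depth band). Rrm2 stood at 143 CPM (136 to 150) in cycling chondrocytes, 11.2 CPM in the 1-to-4 group and 3.69 CPM (3.31 to 4.11) in non-cycling chondrocytes, a log2 ratio of 5.27 (5.10 to 5.45). Its UMIs ran from 0 to 25 in single members with a median of 3, while the median non-cycling cell had 0 and the highest 20, so the groups overlapped in single cells. Pcna, the sliding clamp of DNA polymerases, was at 72.2 CPM in cycling and 22.3 CPM in non-cycling chondrocytes (1.70). The genes within 2-fold were Nasp, a histone chaperone, at 99.8 CPM in cycling against 52.0 CPM in non-cycling cells (0.94), and Mcm6, a subunit of the replicative helicase, at 61.9 CPM in cycling against 34.5 CPM in non-cycling cells (0.84). Pclaf, which is outside the list and among the 12 highest-ranked genes, had 188 CPM in cycling, 17.3 CPM in the 1-to-4 group and 0.385 CPM in non-cycling chondrocytes (8.93, 8.45 to 9.45).

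Supply of nucleotides split by pathway. Of 17 genes, 9 were at least 2-fold higher and 0 lower, with a median of 1.42. Those of deoxynucleotide supply led: Tk1, thymidine kinase, had 81.8 CPM in cycling against 1.64 CPM in non-cycling chondrocytes (5.64), Tyms, thymidylate synthase, 116 CPM in cycling against 8.6 CPM in non-cycling cells (3.75), and Dut, which removes dUTP, 306 CPM in cycling against 58.7 CPM in non-cycling cells (2.38). Genes of purine synthesis stayed within 2-fold, with Gart at 0.79, Atic at 0.61 and Paics at 0.42. In DNA repair, 12 of 14 genes were at least 2-fold higher (median 3.48). Brca1, which acts in homologous repair, stood at 4.41, whereas Msh6 of mismatch repair was within 2-fold (0.94).

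The G2/M genes had the largest ratios of any list. Of 35 genes 34 reached the minimum, and all 34 were at least 2-fold higher, with a median log2 ratio of 7.38. Hmmr, a spindle-associated protein (ENSMUSG00000020330, chr11:40701395-40733422, minus strand, mm10), had 983 UMIs in cycling chondrocytes (93.9 CPM, 88.1 to 99.9) and 12 UMIs in the 4334 non-cycling chondrocytes (0.128 CPM, 0.0664 to 0.224), a log2 ratio of 9.51 (8.70 to 10.47). Ube2c had 367 CPM (356 to 379) in cycling chondrocytes, 9.20 CPM in the 1-to-4 group and 1.56 CPM (1.32 to 1.84) in non-cycling chondrocytes, a log2 ratio of 7.88. Single members held 0 to 69 Ube2c UMIs with a median of 6, and 87.9% of them had at least 1, against 2.81% of non-cycling chondrocytes. Cdc20 and Cks2, a small CDK-binding protein, had the lowest ratios of the list, at 4.39 and 4.45. Cdc20 had 243 CPM in cycling and 11.6 CPM in non-cycling chondrocytes (5.05 on the log2 scale in cells of 20000 to 40000 UMIs), and Cks2 had 270 CPM in cycling and 12.4 CPM in non-cycling chondrocytes. Cdk1, the kinase that drives entry into mitosis, stood at 298 CPM in cycling and 2.40 CPM in non-cycling chondrocytes (6.96).

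Condensin and cohesin genes, which compact and hold sister chromatids, were at least 2-fold higher in 15 of 15 cases (median 4.68). Condensin ATPase Smc4 had 287 CPM in cycling, 39.3 CPM in the 1-to-4 group and 22.9 CPM in non-cycling chondrocytes (3.64), and Esco2, which acetylates cohesin in S phase, 39.5 CPM in cycling and 0.171 CPM in non-cycling chondrocytes (7.85). The core cohesin genes, which every cell uses, had the smallest ratios: Rad21 2.62, Smc1a 1.32 and Smc3 1.25.

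Cyclins and kinases of the G1 phase differed less than those of later phases. Dividing cells without a UMI of Top2a, Mki67 and Birc5 count as non-cycling, and their part in these ratios was not tested. In this list 10 of 14 genes were at least 2-fold higher. Ccna2, the cyclin of S and G2, had 123 CPM (116 to 130) in cycling and 0.214 CPM (0.131 to 0.331) in non-cycling chondrocytes (9.17). The D-type cyclins, which couple growth factor signals to the cycle, were within 2-fold: Ccnd1 had 76.5 CPM in cycling and 67.4 CPM in non-cycling chondrocytes (0.18, and -0.02 with TMM), Ccnd2 103 CPM in cycling and 142 CPM in non-cycling cells (-0.46), and Ccnd3 82.8 CPM in cycling and 80.2 CPM in non-cycling cells (0.05). Their partner Cdk6 was graded, at 214 CPM (205 to 223) in cycling, 128 CPM in the 1-to-4 group and 84.1 CPM (82.3 to 86.0) in non-cycling chondrocytes (1.34), while Cdk4 had 184 CPM in cycling, 125 CPM in 1-to-4 and 105 CPM in non-cycling cells (0.81). The E-type cyclins Ccne1 and Ccne2 had log2 ratios of 2.44 and 3.57 (Ccne2 4.24 in the depth band).

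Inhibitors of cyclin-dependent kinases differed among themselves. Of the INK4 inhibitors of Cdk4 and Cdk6, Cdkn2c had 73.9 CPM (68.8 to 79.3) in cycling, 7.22 CPM in the 1-to-4 group and 6.27 CPM (5.78 to 6.80) in non-cycling chondrocytes (3.56, 3.40 to 3.72), and Cdkn2d 173 CPM in cycling, 68.3 CPM in 1-to-4 and 50.8 CPM in non-cycling cells (1.77). Cdkn2b was low, at 10.98 CPM in cycling against 4.91 CPM in non-cycling cells (1.16, and 0.95 with TMM), and Cdkn2a was under the minimum of 100 UMIs, with 33 UMIs in cycling and 11 in non-cycling cells. The CIP/KIP inhibitors were within 2-fold, with Cdkn1a at 426 CPM in cycling against 526 CPM in non-cycling chondrocytes (-0.30), Cdkn1b at -0.08 and Cdkn1c at 722 CPM in cycling against 1161 CPM in non-cycling cells (-0.69). Single members held 0 to 257 Cdkn1c UMIs with a median of 16, and 97.7% of them had at least 1, against 70.8% of the 65 other cycling P10 cells described below. After thinning to 5000 UMIs these shares were 82.7% of members and 40.7% of the other cycling cells. Of 18 inhibitor and quiescence genes, 4 were at least 2-fold higher and 1 lower, beside 9.27% higher and 5.63% lower of all genes. The lower gene was Gas1, a growth-arrest gene, at 11.1 CPM in cycling against 28.1 CPM in non-cycling cells (-1.34). Among regulators of transcription, Foxm1 (30.9 CPM in cycling against 0.835 CPM in non-cycling cells, 5.21), Mybl2 (B-MYB, 5.6) and the repressor E2f7 (5.84) led 9 of 14 genes that were at least 2-fold higher (median 1.41, and 2.27 in the depth band). Myc, a driver of growth, had 42.4 CPM in cycling and 56.6 CPM in non-cycling chondrocytes (-0.42), and E2f5, a partner of the quiescence complex, stood at -0.75.

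**Figure D2:**
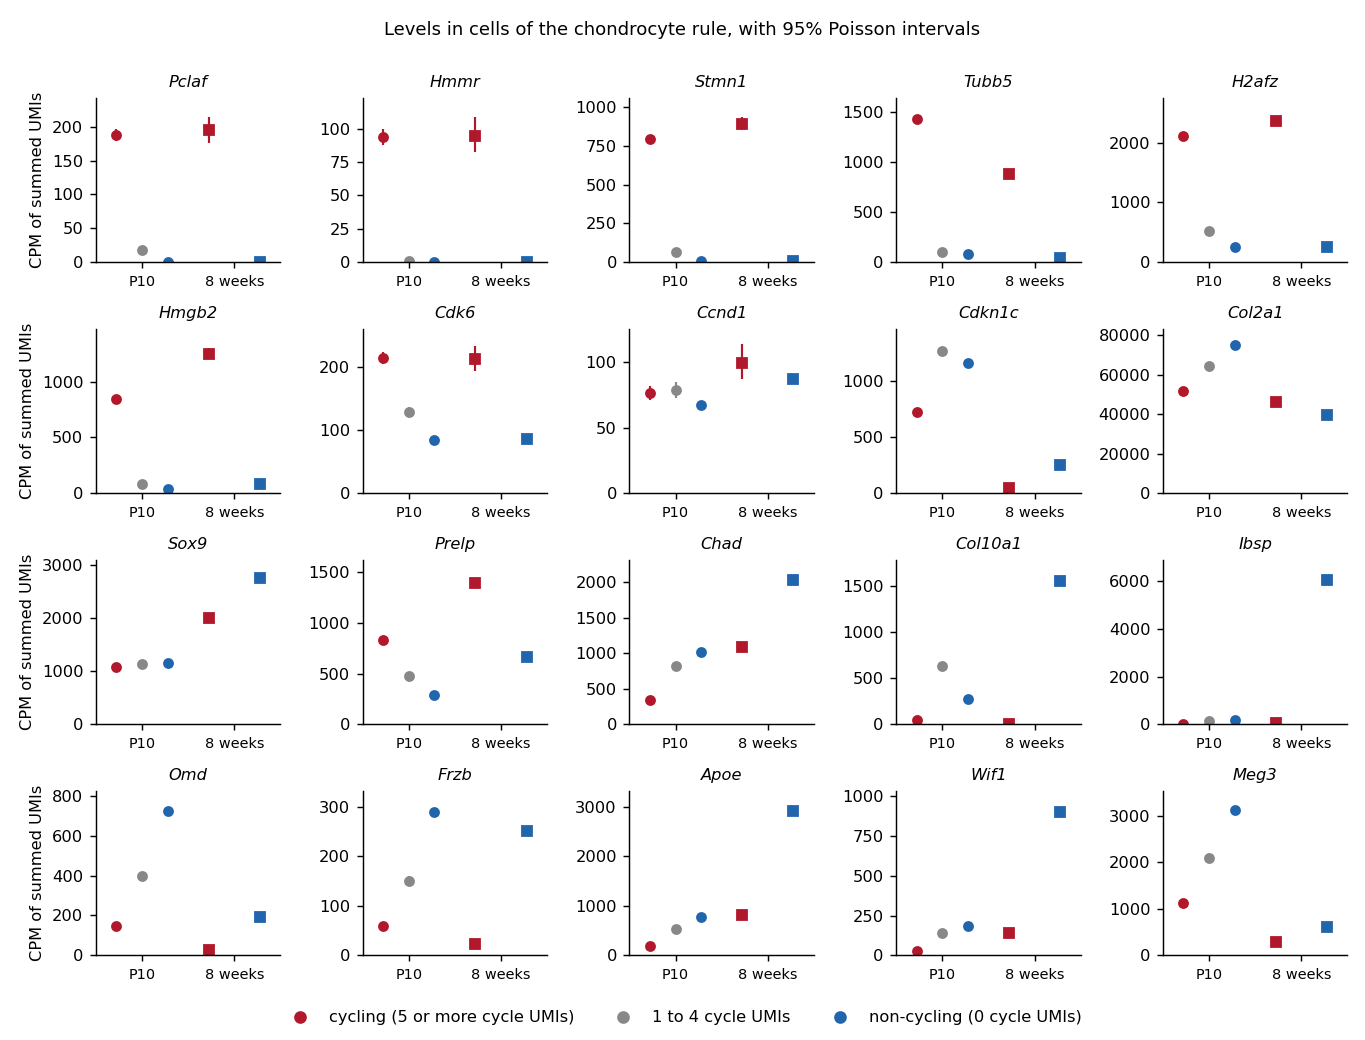
CPM for 20 genes, each on its own linear axis from 0. Circles are P10 cells (cycling, 1 to 4 cycle UMIs, non-cycling) and squares 8-week cells (cycling, non-cycling), with exact Poisson intervals. Pclaf, Hmmr and Stmn1 are far higher in cycling than in the other cells at both ages, Ccnd1 and Sox9 lie close together in the 3 P10 groups, and Omd, Frzb, Apoe, Wif1 and Meg3 are lower in cycling than in non-cycling cells at both ages.

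Histones were measured in poly(A)-primed libraries, although most replication-dependent histone transcripts lack a poly(A) tail, and near-identical copies make their counts uncertain. Of 38 such genes 29 reached the minimum, and 20 were at least 2-fold higher (median 1.76). Hist1h2ap had 862 CPM in cycling, 69.0 CPM in the 1-to-4 group and 43.2 CPM in non-cycling chondrocytes (4.32), and the linker histone Hist1h1b 127 CPM in cycling, 4.77 CPM in 1-to-4 and 4.30 CPM in non-cycling cells (4.88). Others were within 2-fold: Hist1h2bc had 755 CPM in cycling and 922 CPM in non-cycling chondrocytes (-0.29), Hist1h2ac 132 CPM in cycling and 203 CPM in non-cycling cells (-0.62), and Hist1h1c 563 CPM in cycling and 291 CPM in non-cycling cells (0.95). Among variants that are made outside S phase, H2afz was graded, with 2122 CPM (2094 to 2150) in cycling, 520 CPM in the 1-to-4 group and 248 CPM (245 to 251) in non-cycling chondrocytes (3.1). Every member held H2afz, from 2 to 156 UMIs with a median of 71, and all 306 members exceeded the median non-cycling cell when UMIs were divided by the cell's total. Hmgb2, a chromatin-bending protein, did the same, at 842 CPM in cycling against 38.3 CPM in non-cycling cells (4.46), while the variant H3f3a stayed at 0.42.

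Spindle and nuclear lamina genes followed the same pattern. Of 15 genes 10 were at least 2-fold higher (median 2.22). Stmn1, which frees tubulin from microtubules, had 795 CPM (778 to 812) in cycling, 62.9 CPM in the 1-to-4 group and 9.22 CPM (8.61 to 9.86) in non-cycling chondrocytes (6.43). Its UMIs ran from 0 to 85 in members (median 25.5), and 304 of 306 members were above the median non-cycling chondrocyte after division by depth. Tubb5 had 1426 CPM in cycling and 75.6 CPM in non-cycling chondrocytes (4.24) and Tuba1b 884 CPM in cycling and 51.7 CPM in non-cycling cells (4.10), while Tubb2a (0.16) and Tubb2b (-0.38) were within 2-fold. Lamin B1 (Lmnb1) had 73.8 CPM in cycling against 3.19 CPM in non-cycling cells (4.53), and lamin A (Lmna) 597 CPM in cycling against 639 CPM in non-cycling cells (-0.10).

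**Figure D3:**
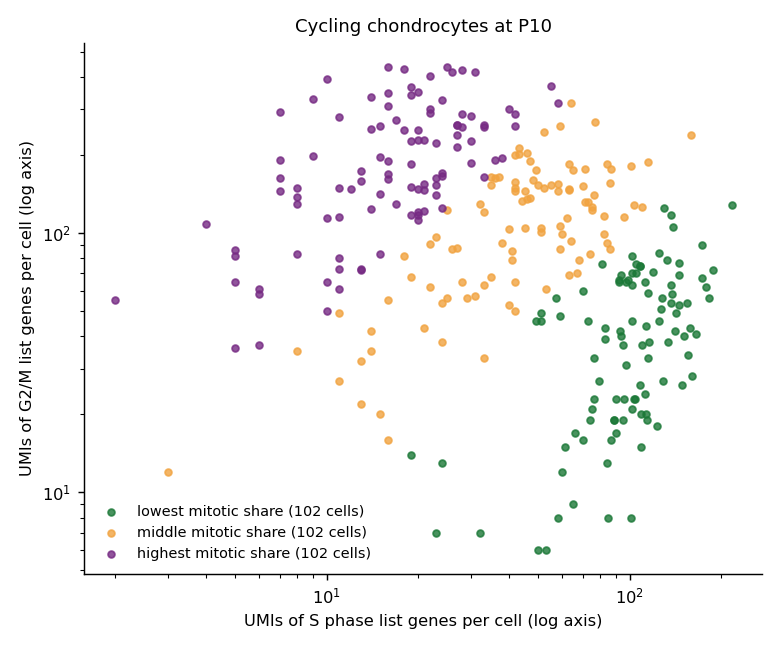
Each point is 1 of the 306 cycling chondrocytes, with UMIs of the S-phase list on the horizontal axis and UMIs of the G2/M list on the vertical axis, both logarithmic. Colours mark 3 ranges of 102 cells by the share of G2/M UMIs; the cells form a continuous cloud from S-rich to G2/M-rich, with a median share of 70.1%.

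The members spanned the cycle from S phase to mitosis. A member held 2 to 217 UMIs of the S-phase list (median 44.5) and 6 to 438 UMIs of the G2/M list (median 90.5). The G2/M share of the 2 sums ran from 7.34% to 97.7% with a median of 70.1%. The cells were ordered by this share and divided into 3 ranges of 102 cells: 7.34 to 49.6%, 50 to 83.2% and 83.2 to 97.7%. Median depth was close in the 3 ranges, at 30936, 34211 and 34983 UMIs, and the median sum of the 3 rule genes was 19, 38.5 and 36 UMIs, so the rule selected the S-rich cells by fewer transcripts. The 2 lists made the ranges and are not tested here.

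Genes outside those lists also differed along the ranges. Of 5682 genes with at least 100 UMIs in the lowest and highest ranges together, 234 (4.12%) were at least 2-fold higher and 226 (3.98%) at least 2-fold lower in the highest range. With members thinned to 5000 UMIs, 42 higher and 21 lower genes still reached 100 UMIs. Ccne2 had 30.2 CPM in the lowest, 9.45 CPM in the middle and 0.85 CPM in the highest range (log2 ratio of highest over lowest -5.15). E2f1 had 91.5 CPM in the lowest, 17.8 CPM in the middle and 3.11 CPM in the highest range (-4.88) and Ccne1 65.3 CPM in the lowest, 25.8 CPM in the middle and 2.26 CPM in the highest range (-4.85). These G1/S regulators were thus highest in the S-rich members. Toward the other end, Gas2l3, a linker of actin and microtubules in late division, had 5.81 CPM in the lowest, 30.9 CPM in the middle and 75.6 CPM in the highest range (3.70). Cdc25b, a phosphatase that activates Cdk1, had 4.07 CPM in the lowest, 20.6 CPM in the middle and 42.7 CPM in the highest range (3.39), and Cdkn3, a mitotic phosphatase, 26.7 CPM in the lowest, 119 CPM in the middle and 212 CPM in the highest range (2.99). In DNA repair 8 of 9 genes were at least 2-fold lower in the highest range (median -2.22). In cartilage matrix 0 of 17 genes and in chondrogenic regulators 0 of 16 passed 2-fold in either direction, with medians of 0.00 and 0.21; of prehypertrophic and hypertrophic genes 1 of 10 was lower and of resting genes 1 of 9 higher, beside the 4.12% higher and 3.98% lower of all genes.

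**Figure D4:**
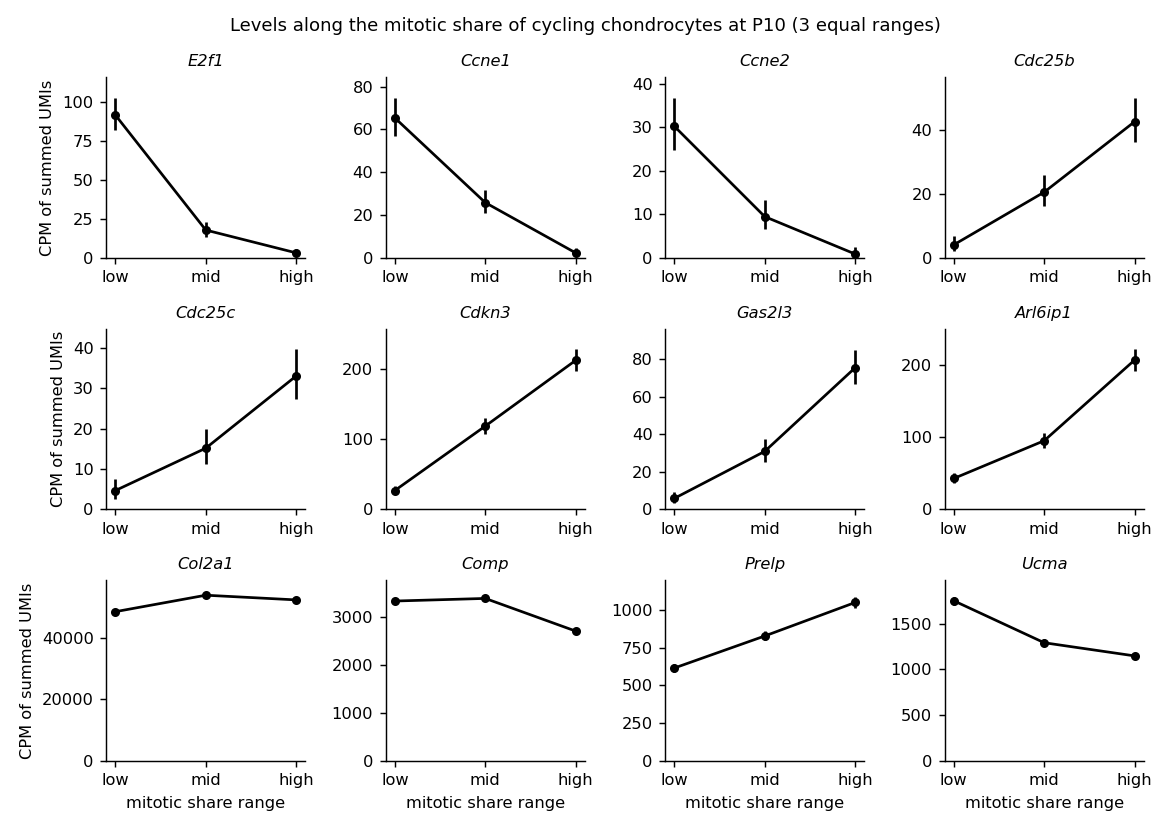
CPM in the 3 ranges of the G2/M share, from S-rich to G2/M-rich, for 12 genes with exact Poisson intervals, each gene on its own linear axis from 0. E2f1, Ccne1 and Ccne2 decline, Cdc25b, Cdc25c, Cdkn3, Gas2l3 and Arl6ip1 climb, and the cartilage genes Col2a1, Comp, Prelp and Ucma stay within 2-fold.

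Of 19 cartilage matrix genes, 15 were within 2-fold, 1 was at least 2-fold higher and 3 lower (median -0.11, against 0.12 for all genes, of which 9.27% were higher and 5.63% lower). Col2a1 had 51699 CPM (51561 to 51837) in cycling, 64470 CPM in the 1-to-4 group and 75124 CPM (75069 to 75180) in non-cycling chondrocytes (-0.54). Collagen IX and XI genes stood between -0.11 and 0.11, Comp at 0.05 and the link protein Hapln1 at -0.13. Sox9, the master regulator of chondrocytes, had 1087 CPM in cycling, 1127 CPM in the 1-to-4 group and 1151 CPM in non-cycling chondrocytes (-0.08), and its partners Sox5 and Sox6 had log2 ratios of 0.27 and 0.21. Each member held at least 1 UMI of Sox9, with a median of 33 and a highest of 148.

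Prelp and Chad, both leucine-rich repeat proteins of the cartilage matrix, went opposite ways. Prelp (ENSMUSG00000041577, chr1:133910304-133921414, minus strand, mm10) had 832 CPM (815 to 850) in cycling, 478 CPM in the 1-to-4 group and 292 CPM (288 to 295) in non-cycling chondrocytes (1.51, 1.48 to 1.55). In single members it ran from 0 to 101 UMIs with a median of 25, and 91.8% of members were above the median non-cycling chondrocyte after division by depth. Chad had 342 CPM (331 to 353) in cycling, 814 CPM in the 1-to-4 group and 1017 CPM (1010 to 1023) in non-cycling chondrocytes (-1.57), with 25.2% of members above the median non-cycling cell. Epyc, a proteoglycan of growth cartilage, was at 698 CPM in cycling against 404 CPM in non-cycling cells (0.79). Prg4, the articular surface gene of lubricin, was low in both groups (16 UMIs in cycling, 1.53 CPM in cycling against 15.3 CPM in non-cycling cells, -3.32, and -2.53 in the depth band). Cilp was low in both groups as well (6 UMIs in cycling, 0.573 CPM in cycling against 8.38 CPM in non-cycling cells, -3.87).

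Markers of resting and periarticular chondrocytes were lower in cycling chondrocytes. All 15 genes reached the minimum; 13 were at least 2-fold lower and 0 higher, with a median of -1.55. Omd, osteomodulin (ENSMUSG00000048368, chr13:49582462-49592822, plus strand, mm10), had 146 CPM (139 to 154) in cycling, 398 CPM in the 1-to-4 group and 723 CPM (717 to 728) in non-cycling chondrocytes (-2.30). Single members held 0 to 93 Omd UMIs with a median of 1, against 0 to 414 with a median of 4 in non-cycling chondrocytes, and the 2 distributions overlapped. Frzb, a secreted Wnt antagonist, had 58.5 CPM in cycling, 151 CPM in the 1-to-4 group and 290 CPM in non-cycling chondrocytes (-2.31). Apoe, the lipid carrier, had 195 CPM in cycling, 527 CPM in 1-to-4 and 779 CPM in non-cycling cells (-2.0), and Lox, which crosslinks collagen, 89.7 CPM in cycling, 273 CPM in 1-to-4 and 496 CPM in non-cycling cells (-2.47). The genes within 2-fold were Ucma (1394 CPM in cycling against 2316 CPM in non-cycling cells, -0.73) and Fbn2 (-0.95, and -0.21 in the depth band).

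The resting list had a median of -1.48 when depth was matched, with exceptions among its genes. In cells of 20000 to 40000 UMIs, Omd stood at -2.99, Lox at -3.41, Frzb at -3.07 and Apoe at -1.81. Pthlh, which encodes the PTHrP signal of resting chondrocytes, had 8.02 CPM in cycling against 19.5 CPM in non-cycling cells over all cells (-1.28) but -0.04 in the depth band, and Sfrp5 stood at -0.40 there, against -1.13 over all cells. Chondrocytes with 1 to 4 cycle UMIs had a median of -0.46 against non-cycling cells, with 1 of 15 genes at least 2-fold lower, against 1.37% of all 11717 genes in that contrast. Fibrous collagen genes, which tendon and annulus cells make, moved with this list: Col1a1 had 1012 CPM in cycling and 2083 CPM in non-cycling chondrocytes (-1.04), and Col1a2 stood at -1.05. The defining tendon and annulus markers summed to 81.5 CPM in cycling and 99.5 CPM in non-cycling chondrocytes; their part in the result was not tested. Without cells that held at least 10 UMIs of another cell type's defining markers, Omd was at -2.62, Frzb at -2.50, Lox at -3.09 and Col1a1 at -2.05.

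Hypertrophic genes were lower in part. Of 14 genes, 6 were at least 2-fold lower and 1 higher (median -0.57), beside 5.63% lower and 9.27% higher of all genes. Col10a1, the collagen of hypertrophic cartilage, had 48.8 CPM (44.7 to 53.2) in cycling, 625 CPM in the 1-to-4 group and 272 CPM (269 to 275) in non-cycling chondrocytes (-2.48, and -4.59 in the depth band). It was seen in 19% of cycling and 14.6% of non-cycling cells, with a highest count of 278 in cycling and 1237 in non-cycling cells, so the difference lay in cells with many UMIs. Ibsp, bone sialoprotein of late hypertrophy, had 4.58 CPM in cycling, 122 CPM in the 1-to-4 group and 162 CPM in non-cycling chondrocytes (-5.14, and -5.91 in the depth band). Ihh, the signal of prehypertrophic cells, had 11.2 CPM in cycling, 44.6 CPM in 1-to-4 and 35.7 CPM in non-cycling cells (-1.67), and Alpl, the phosphatase of mineralising cells, 21.4 CPM in cycling, 125 CPM in 1-to-4 and 74.6 CPM in non-cycling cells (-1.80, and -2.84 in the depth band). Over all depths, the 1-to-4 group was thus above non-cycling cells in Col10a1, Ihh and Alpl while cycling cells were below. Among cells with at least 10 Col10a1 UMIs, 23 of 189 had 1 to 4 cycle UMIs. Among other cells with at least 10 Ucma UMIs, 250 of 3914 did. In the depth band these counts were 6 of 89 and 115 of 1640. The part of depth in the levels of the 1-to-4 group was not tested. Runx3, a transcription factor of maturing chondrocytes, was the gene at least 2-fold higher, with 82.9 CPM in cycling, 47.0 CPM in 1-to-4 and 29.97 CPM in non-cycling cells (1.47), and Runx2 stood at 0.17.

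Receptors of growth plate signals differed modestly. Ptch1, the hedgehog receptor and a transcriptional target of hedgehog signalling, had 70.3 CPM in cycling, 56.3 CPM in the 1-to-4 group and 37.5 CPM in non-cycling chondrocytes (0.91), and the effector Gli3 stood at 1.01. Fgfr3, the FGF receptor of proliferating chondrocytes, had 160 CPM in cycling, 139 CPM in 1-to-4 and 95.7 CPM in non-cycling cells (0.74), and Fgfr1 72.5 CPM in cycling, 104 CPM in 1-to-4 and 145 CPM in non-cycling cells (-1.0, just inside 2-fold). Among growth factors and imprinted genes 6 of 22 were at least 2-fold lower and 0 higher, beside 5.63% lower and 9.27% higher of all genes. Meg3, a maternally expressed noncoding RNA, had 1115 CPM (1095 to 1135) in cycling, 2096 CPM in the 1-to-4 group and 3121 CPM (3109 to 3132) in non-cycling chondrocytes (-1.48), and only 6.54% of members lay above the median non-cycling cell. Its imprinted neighbour Dlk1 had 170 CPM in cycling, 310 CPM in 1-to-4 and 411 CPM in non-cycling cells (-1.27), Bmp2 58.1 CPM in cycling, 164 CPM in 1-to-4 and 143 CPM in non-cycling cells (-1.30), and Igf1 stood at -1.56, whereas H19 (0.10) and Igf2 (-0.03) were near 0.

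Metabolic and secretory lists had few genes past 2-fold, as had all genes, of which 9.27% were higher and 5.63% lower. In oxidative phosphorylation 0 of 19 genes passed 2-fold (median 0.42), in collagen folding and secretion 0 of 19 (median -0.00), in the unfolded protein response 0 of 17 (0.17) and in immediate early genes 0 of 18 (0.05). Jun, an immediate early factor that dissociation also induces, had 2552 CPM in cycling, 1738 CPM in the 1-to-4 group and 1361 CPM in non-cycling chondrocytes (0.91). In glycolysis and hypoxia 1 of 22 genes was at least 2-fold higher, Car12, a carbonic anhydrase (44.2 CPM in cycling against 11.5 CPM in non-cycling cells, 1.94, and 0.96 in the depth band), and 2 were lower, Aldoa (291 CPM in cycling against 604 CPM in non-cycling cells, -1.05) and Car9 (-1.32). Slc26a2, the sulphate transporter for proteoglycan synthesis, had 171 CPM in cycling against 86.9 CPM in non-cycling cells (0.98). In proteases and inhibitors 3 of 14 genes were lower, Timp3 (262 CPM in cycling against 661 CPM in non-cycling cells, -1.33, and -1.97 in the depth band), A2m (-1.45) and Mmp13 (-1.52, and -0.11 in the depth band).

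The lowest genes by ratio included markers of other cells. Saa2 had 0 UMIs in cycling chondrocytes and was at least 18.3-fold lower with 3 counts as the floor, and the mast cell protease Mcpt4 at least 17.9-fold lower. The Mcpt4 UMIs of non-cycling chondrocytes came from 3 cells, so this is a count of a few cells. The cartilage cytokine Cytl1 had 2.01 CPM in cycling, 37.4 CPM in the 1-to-4 group and 44.2 CPM in non-cycling chondrocytes (-4.46). A rule added after the values were seen ranked genes outside the gene and marker lists that were seen in at least 25% of the cells of a group. Among these, Wif1, a secreted Wnt inhibitor, stood lowest at 27.4 CPM in cycling, 140 CPM in 1-to-4 and 186 CPM in non-cycling cells (-2.76). Ogn (-2.38) and Efemp1 (-2.26) followed. Rbp4, the retinol carrier, had 109 CPM in cycling, 320 CPM in 1-to-4 and 437 CPM in non-cycling cells (-2.0), and the chemokine Cxcl14 77.9 CPM in cycling, 196 CPM in 1-to-4 and 299 CPM in non-cycling cells (-1.94).

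Traces of other cell types were counted by their defining markers. At least 10 UMIs of the defining markers of another type were held by 28 cycling (9.15%) and 378 non-cycling chondrocytes (8.72%). Erythroid markers summed to 420 CPM in cycling and 2.18 CPM in non-cycling chondrocytes, with 2 cycling and 1 non-cycling cells at or above 10 UMIs; the hemoglobin genes are named nowhere else here. Endothelial markers were at 0.860 CPM in cycling against 0.653 CPM in non-cycling cells, macrophage markers at 0.955 CPM in cycling against 0.482 CPM in non-cycling cells and neutrophil markers at 6.30 CPM in cycling against 43.5 CPM in non-cycling cells. Mural markers were at 18.3 CPM in cycling against 3.79 CPM in non-cycling cells, and mast cell markers at 0.0955 CPM in cycling against 12.99 CPM in non-cycling cells. A doublet score above 0.25 was found in 16 cycling (5.23%) and 108 non-cycling chondrocytes (2.49%), with a median score of 0.0603 in cycling and 0.0460 in non-cycling cells. Its part in the result was not tested beyond leaving these cells out, after which 1094 genes were higher and 787 lower.

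Cycling chondrocytes were also set against the 65 other cycling P10 cells, which met the cycle side of the rule but had under 5 Acan UMIs. Of 7836 genes, 872 (11.1%) were at least 2-fold higher and 2085 (26.6%) lower in cycling chondrocytes, and the median gene stood at -0.42; after centring on it the counts were 1313 higher and 1258 lower. Acan split the groups, and only the members had to hold the other cartilage genes of the rule and few Pecam1 and Cdh5 UMIs. Cartilage and endothelial differences between the groups are thus in part built in. Of cartilage matrix genes, 17 of 17 were at least 2-fold higher (median 5.88). Col2a1 had 51699 CPM in cycling against 581 CPM in other cycling cells (6.48), and Epyc 698 CPM in cycling against 1.48 CPM in other cycling cells (8.88). Mia, a small secreted cartilage protein, had 908 CPM in cycling against 5.19 CPM in other cycling cells (7.45). The other cycling cells were a mixture by wide marker lists, which hold more genes than the defining markers above. At least 10 UMIs of connective fibroblast markers were held by 56.9% of them (2651 CPM over all 65), against 7.84% of cycling chondrocytes. Endothelial markers reached this in 35.4% (2252 CPM) against 0%, and erythroid markers in 5 cells (8836 CPM) against 2. Tendon and annulus markers did so in 53.8% and mural markers in 44.6%, but also in 100% and 40.8% of cycling chondrocytes. The S-phase list had a median of -0.35 (-0.57 to -0.11), near the median gene at -0.42. The G2/M median was -0.08 (-0.25 to 0.13), above the median gene, with 33 of 34 genes within 2-fold. TMM scaling put the shift of this contrast at -0.69. Replication-dependent histones were higher in cycling chondrocytes, 11 of 20 genes with a median of 1.38, led by Hist1h1c (563 CPM in cycling against 52.0 CPM in other cycling cells, 3.44) and Hist1h2bc (755 CPM in cycling against 101 CPM in other cycling cells, 2.90). Of the G1 regulators, Cdk6 had 214 CPM in cycling against 69.8 CPM in other cycling cells (1.61), Cdkn1c 722 CPM in cycling against 115 CPM in other cycling cells (2.65) and Ccnd1 76.5 CPM in cycling against 195 CPM in other cycling cells (-1.35).

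The same rule at 8 weeks gave 73 cycling and 1596 non-cycling chondrocytes among 1795 cells of the chondrocyte rule. Cycling cells were 6.14% (5.49 to 6.84) of them at P10 and 4.07% (3.20 to 5.09) at 8 weeks. Within 20000 to 40000 UMIs the shares were 8.24% (7.13 to 9.47) at P10 and 9.73% (7.47 to 12.4) at 8 weeks, so the order of the ages turned with depth. After thinning to 5000 UMIs, 7.80% (7.07 to 8.58) of P10 and 6.63% (5.51 to 7.90) of 8-week cells held any UMI of the 3 cycle genes, and these intervals overlap.

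The genes of the contrast between cycling and non-cycling chondrocytes were shared in part between the ages. At 8 weeks 882 of 10734 genes (8.22%) were at least 2-fold higher and 1018 (9.48%) lower. Of 10509 genes measured in both contrasts, 857 were at least 2-fold higher at P10 and 639 of them (74.6%) also at 8 weeks, which is 75.2% of the 850 genes higher at 8 weeks. Of 460 genes lower at P10, 317 (68.9%) were lower at 8 weeks, which is 32.9% of 963. For comparison, 2.25% of the 9192 genes within 2-fold at P10 were higher and 6.97% lower at 8 weeks. The rule selects for the cycle in both ages, so the shared part on the higher side is in part built in. On the lower side, Omd had 26.3 CPM in cycling against 192 CPM in non-cycling cells at 8 weeks (-2.86), Frzb 22.3 CPM in cycling against 252 CPM in non-cycling cells (-3.50), Apoe 805 CPM in cycling against 2916 CPM in non-cycling cells (-1.86) and Wif1 138 CPM in cycling against 901 CPM in non-cycling cells (-2.71).

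Some cartilage genes did not keep their P10 pattern. Col2a1 was lower in cycling chondrocytes at P10 (-0.54) but had 46185 CPM in cycling against 39448 CPM in non-cycling chondrocytes at 8 weeks (0.23), and Ucma was at -0.73 at P10 and 0.45 at 8 weeks. Of hypertrophic genes, 9 of 14 were at least 2-fold lower at 8 weeks, beside 9.48% of all genes, and 6 of 14 at P10, beside 5.63%. At 8 weeks Col10a1 had 5.45 CPM in cycling against 1554 CPM in non-cycling cells (-8.16), and Ibsp 29.1 CPM in cycling against 6048 CPM in non-cycling cells (-7.70). Spp1, osteopontin, had 371 CPM in cycling against 4087 CPM in non-cycling cells (-3.46, and -0.73 at P10). The 8-week cycling levels come from 73 cells, and the low ones among them from few UMIs. Cdkn1c, at -0.69 at P10, had 45.0 CPM in cycling and 251 CPM in non-cycling chondrocytes at 8 weeks (-2.48). Prelp (1.07), Runx3 (0.90), Cdkn2c (3.24) and Cdk6 (1.31) kept their direction.

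Cycling chondrocytes of P10 and of 8 weeks were also set against each other. Of 7833 genes 386 (4.93%) were at least 2-fold higher and 1088 (13.9%) lower at P10, with the median gene at -0.24. Non-cycling chondrocytes moved likewise, with 582 (4.67%) higher and 3250 (26.1%) lower of 12473 and the median gene at -0.48. Immediate early genes were lower at P10, 14 of 18 in cycling cells (median -1.80) and 14 of 18 in non-cycling cells (median -1.79). Resting markers were higher at P10 in cycling cells, 7 of 11 with a median of 1.40, and the median was 0.33 in non-cycling cells. Of condensin and cohesin genes, 6 of 15 were at least 2-fold lower at P10 in cycling cells (median -0.84) and 3 of 9 in non-cycling cells (median -0.90). Of DNA repair genes, 7 of 14 were lower at P10 in cycling cells (median -0.90) and 5 of 11 in non-cycling cells (median -0.98). Each of these values compares 2 libraries.

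**Figure D5:**
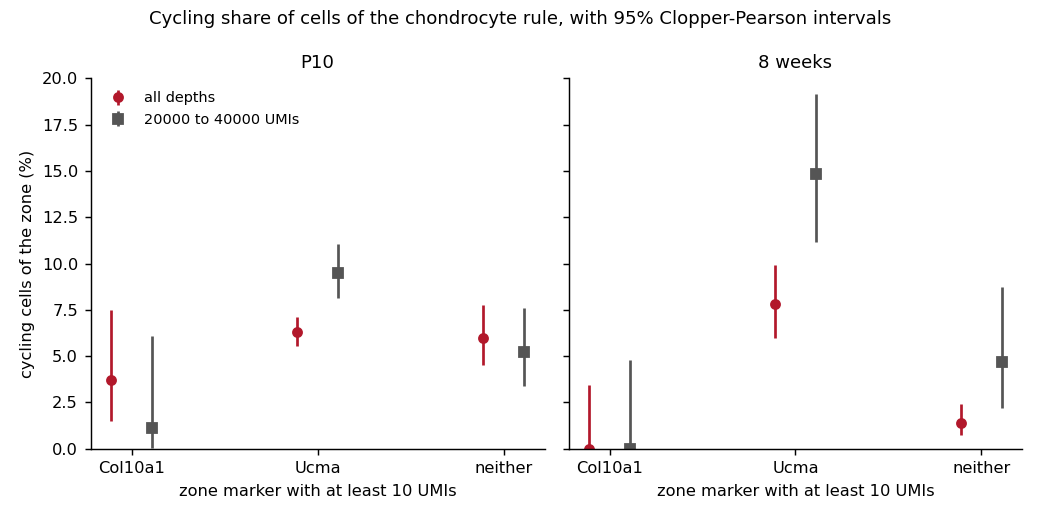
Percent of chondrocyte-rule cells that were cycling, by zone marker (Col10a1, Ucma, neither), at all depths and within 20000 to 40000 UMIs, for P10 and 8 weeks, with exact binomial intervals. Within 20000 to 40000 UMIs the Col10a1 zone is lowest (1.12% at P10) and the Ucma zone highest (9.51% at P10).

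The share of dividing cells was last read by zone marker. Cells with at least 10 UMIs of Col10a1 were taken as the Col10a1 zone, and others with at least 10 UMIs of Ucma, which upper growth cartilage expresses, as the Ucma zone. Cycling cells were 7 of 189 in the Col10a1 zone at P10 (3.70%, 1.5 to 7.48), 246 of 3914 in the Ucma zone (6.29%, 5.54 to 7.09) and 53 of 884 in cells with neither (6.0%, 4.52 to 7.77). Col10a1 cells were deeper, with a median of 39441 UMIs against 19281 in Ucma cells. At 20000 to 40000 UMIs the counts were 1 of 89 (1.12%, 0.0284 to 6.10), 156 of 1640 (9.51%, 8.14 to 11) and 25 of 479 (5.22%, 3.41 to 7.61). At 8 weeks in the same depth band, 0 of 75 Col10a1 cells were cycling, which allows a share of up to 4.00% by 3 counts (exact upper limit 4.80%), against 49 of 330 Ucma cells (14.8%, 11.2 to 19.2) and 9 of 191 others (4.71%, 2.18 to 8.76). The Ucma zone thus held the highest cycling share in the depth band at both ages. There the intervals of Ucma cells and of cells with neither marker did not overlap. Median depth still differed within the band at P10, at 32212 UMIs for Col10a1, 24949.5 for Ucma and 27434 for neither. At all depths the P10 order of Ucma and neither turned with the zone threshold. With 5 UMIs the shares were 6.24% and 6.29%, and with 20 UMIs 6.19% and 6.35%. At 8 weeks Ucma stayed higher, at 6.24% against 0.99% and 11.6% against 2.13%.

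The reporter was rarely captured. TDT, the tdTomato sequence, had 7 UMIs in cycling chondrocytes (0.669 per 1000000) and 37 UMIs in non-cycling chondrocytes (0.396 per 1000000), and was seen in 2.29% of cycling and 0.761% of non-cycling cells. WPRE4, listed with it among the exogenous sequences of the files, had 24.8 per 1000000 (21.9 to 28.0) in cycling and 27.5 per 1000000 (26.5 to 28.6) in non-cycling chondrocytes; at least 10 UMIs were found in 1 of 306 cycling and 21 of 4334 non-cycling chondrocytes, but in 11 of the 65 other cycling cells. Tagln itself had 15.1 CPM in cycling and 16.4 CPM in non-cycling chondrocytes (-0.12). CRE and EGFP had 0 UMIs in cycling chondrocytes, which allows up to 0.980% of cells with a UMI by 3 counts (exact upper limit 1.198%).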

How the data were processed

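Droplet-based single-cell RNA sequencing of dissociated whole discs was analysed from 1 matrix an age. The deposited matrices hold raw UMI counts per gene and cell, and Cell Ranger 3.1.0, Seurat 3 (role not stated) and the mm10 (GRCm38) build are named per the submitters' processing notes. Of the deposited files, the barcode and feature lists are of other content: they name cells and genes. The 4 samples of an age share 1 matrix and could not be told apart, so no replicate, test or p-value exists.

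Filters required 500 genes and 1000 UMIs or more in a cell and no more than 15% mitochondrial UMIs. Counts were summed per group and scaled to CPM; log2 ratios have exact conditional binomial intervals, levels exact Poisson intervals and shares Clopper-Pearson intervals, all at 95%. Genes with at least 100 UMIs in both groups together were compared, and "at least 2-fold" is a size, not a test. A fold against 0 UMIs uses 3 counts over the group. Exogenous sequences were joined by barcode and divided by the gene UMIs. Cells were thinned to 5000 UMIs with seed 7. Doublets were scored with Scrublet (expected rate 6%). At P10 the threshold it chose (0.627) marked 0 cells, which does not show that doublets were absent, and a score limit of 0.25 served as an alternative. At 8 weeks the threshold it chose (0.253) marked 139 cells. Tools were Python 3.11.15, NumPy 2.4.6, SciPy 1.17.1, pandas 2.3.3, Scanpy 1.11.5 and Matplotlib 3.10.9. The contrast was tested on simulated data. Gene positions come from GENCODE and promoters from RefSeq, both on GRCm38.

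Named genes were the 12 highest and 12 lowest ranked on whichever interval bound was closer to no difference, the 6 highest and 6 lowest against other cycling cells, up to 4 genes of each of 25 lists with the most UMIs, and a set of fixed names. Genes detected in at least 25% of cells outside the lists, the defining markers of other cell types and other list members named in the text were chosen after values were seen. The members and lists were chosen with earlier results of these data known.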

Additional observations from a re-analysis of the deposited data

How the results depend on the processing

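Counts of genes past 2-fold between cycling and non-cycling chondrocytes at P10 (1102 higher, 669 lower) moved with the gene minimum and the cells compared. The lower count was 1072 with at least 30 UMIs a gene and 425 with at least 300, the higher count 655 after thinning, and against cells with 1 to 4 cycle UMIs the counts were 568 higher and 167 lower. A threshold of 10 cycle UMIs left 3.83% of cells as members. The share of chondrocytes with a cycle UMI was 13.1% at full depth and 7.80% thinned. Against other cycling cells (872 higher, 2085 lower) the counts were 1313 and 1258 after centring on the median gene, 336 and 372 after thinning, and 3438 lower with at least 30 UMIs. In the depth band the cycling share was 1.12% in the Col10a1 zone and 9.51% in the Ucma zone, against 3.70% and 6.29%. Along the mitotic share (234 higher, 226 lower), 142 genes were higher with 2 ranges, and 42 higher and 21 lower after thinning. Without cells holding another type's defining markers, Retnlg stood at 0.10 and S100a8 at 0.50, and S100a8 at 0.28 within the depth band, each below 0 with those cells; the cause was not tested. Of list medians 315 settings stayed within the spread and 10 moved; of single log2 ratios 1160 stayed, 712 moved, and the 3 just named changed sign from at least 2-fold; sign changes of ratios within 2-fold, such as Ccnd1 with TMM, are not counted apart.

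The planned removal of cells with at least 10 UMIs of the wide marker lists of other types gave no value, since it left 0 of 306 members; the defining-marker version was chosen after seeing the data. No paired analysis was possible because the 4 numbered samples of an age share 1 matrix. The limits are 1 library an age, members that are deeper than the cells they are set against, doublets that were not removed, and 73 cells at 8 weeks.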
